A study of Mus with 4 samples.

Results

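The genes described here are 8 clotting factor genes other than fibrinogen, taken by their Ensembl identifiers from a deposited mouse gene count table of 54532 identifiers. They are F2 (ENSMUSG00000027249), F5 (ENSMUSG00000026579), F7 (ENSMUSG00000031443), F9 (ENSMUSG00000031138), F10 (ENSMUSG00000031444), Serpinc1 (ENSMUSG00000026715), Proc (ENSMUSG00000024386) and Pros1 (ENSMUSG00000022912). They were chosen as clotting proteins made mainly by hepatocytes, to be read beside fibrinogen. No expression value entered the rule, but the list was chosen with earlier results of these data known. All 8 of 8 had enough reads to be tested, among 15510 tested genes. The libraries were made from liver sinusoidal endothelial cells (LSECs), the fenestrated endothelium of the liver sinusoids, and all came from mice given carbon tetrachloride (CCl4), a toxin that injures hepatocytes. Of the 4 libraries, 2 were from control mice (CTL; libraries CTL1 and CTL2) and 2 from mice labelled Pofut1 knockout (P1KO; libraries KO1 and KO3). The series title places the loss of POFUT1 in the endothelium. The labels used here give no strain, age, sex, Cre driver, CCl4 dose or time after CCl4, nor what the controls carry, and do not state whether each library is 1 mouse. The spread behind every p-value is thus that of the libraries and may be technical. The tissue label is liver, but the RNA extraction text speaks of heart ventricles.

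Blood clots when a cascade of liver-made zymogens ends in thrombin, which cuts fibrinogen into fibrin. F7 starts the cascade with tissue factor, F9 and F10 carry it on, F5 is the cofactor of activated factor X, and F2 encodes prothrombin, the zymogen of thrombin. Serpinc1 (antithrombin), Proc (protein C) and Pros1 (protein S, the cofactor of activated protein C) restrain it. The proteins of F2, F7, F9, F10, Proc and Pros1 depend on vitamin K for carboxylation, and those of F7, F9, F10, Proc and Pros1 hold EGF-like repeats. POFUT1 adds O-linked fucose to certain EGF-like repeats, and factors VII and IX are known to carry it, as Notch receptors do. Hepatocytes are the main source of these proteins, whereas protein S is also made by endothelial cells, and factor V is also found in platelets and megakaryocytes.

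The libraries held between 17464769 and 17918834 reads. The members together took between 0.0625% and 0.0683% of a library's reads, and Pros1 alone accounted for 80.9% of the reads of the 8 genes over all libraries. The biological coefficient of variation over all tested genes was 3.23% for the CTL pair and 12.1% for the P1KO pair. Values of a group are given below in the order CTL1, CTL2 and KO1, KO3. The deposited identifiers could not be matched to symbols beyond the 8 members. Markers of hepatocytes, LSECs, megakaryocytes or heart muscle were therefore not read, Pofut1 itself was not checked, and whether the members' reads came from hepatocytes, endothelium or other cells of the preparations was not tested. Fewer cells of a type and less RNA per cell cannot be told apart in such bulk samples.

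P1KO libraries held less RNA of Proc, F7 and F10 and slightly more of Pros1 than CTL libraries, while F2, F5, F9 and Serpinc1 did not pass the test. Proc was 2.10-fold lower, F7 1.80-fold lower and F10 1.45-fold lower in P1KO, and Pros1 was 1.17-fold higher. In all, 4 of 8 members were called, 3 lower and 1 higher, at a Benjamini-Hochberg adjusted p below 0.05 in edgeR's quasi-likelihood test over all tested genes. Over all tested genes 19.5% were called, 9.84% lower and 9.68% higher. The members' log2 fold changes ran from -1.07 to 0.55 with a median of -0.07, beside a median of -0.01 over all tested genes. The P1KO and CTL libraries did not overlap for 5 of 8 members, a share near the 62.6% of all tested genes for which the same was true. No member was called in edgeR once either control was dropped: 0 of 8 passed without CTL1 and 0 of 8 without CTL2, where the background was 0.832% and 0.774% of tested genes. In each of these fits 3 members, F7, F10 and Proc, had an unadjusted p below 0.05, as did 18.8% of all tested genes without CTL1 and 19% without CTL2.

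**Figure D1:**
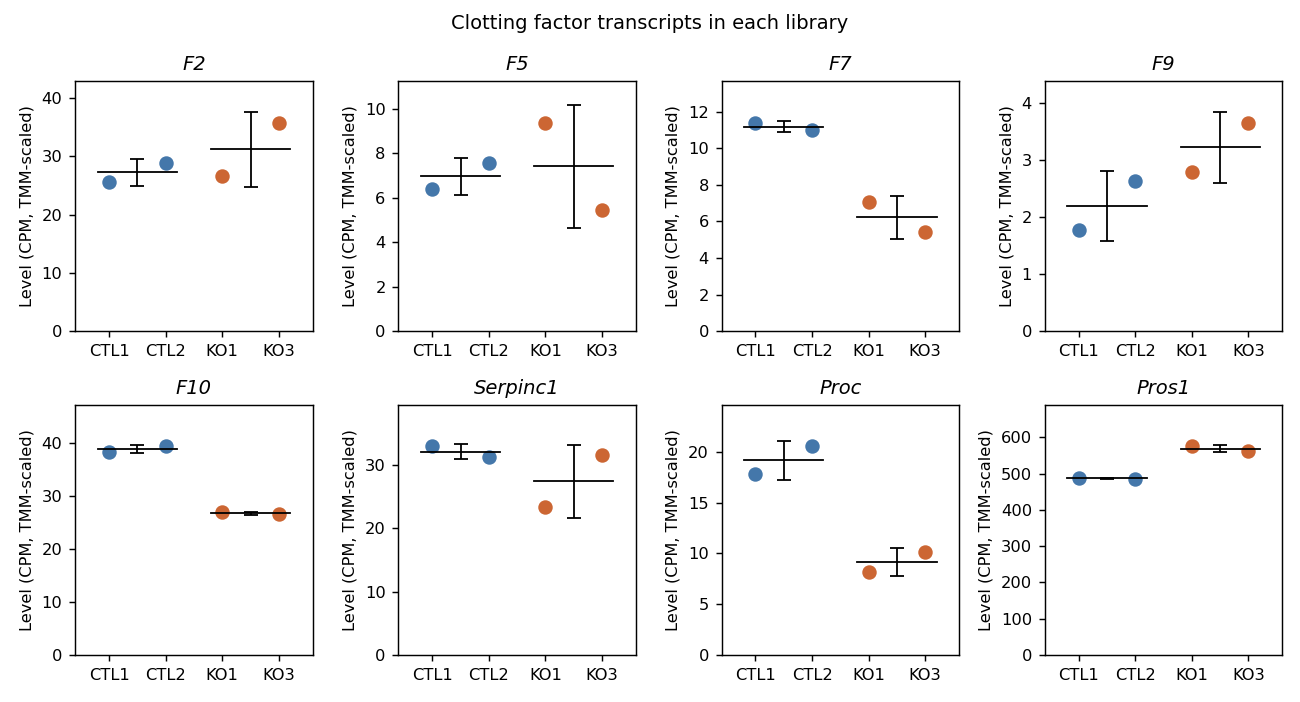
Level of each clotting factor transcript (vertical axis, CPM scaled with TMM, starting at 0) in each of the 4 libraries (horizontal axis). Points are libraries, horizontal lines group means and bars 1 SD over 2 libraries. Both P1KO points of F7, F10 and Proc lie below both CTL points, those of Pros1 and F9 lie above them, and the groups overlap for F2, F5 and Serpinc1.

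Among the procoagulant genes, F7 lies at the entry of the cascade. It had 200 and 196 reads in the CTL libraries and 124 and 96 in the P1KO libraries, or 11.4, 10.97, 7.05 and 5.39 CPM (read counts scaled to library size). Both P1KO libraries were below both CTL libraries, and KO3 was the lowest. The group levels were 11.2 ± 0.295 CPM in CTL and 6.22 ± 1.17 CPM in P1KO (SD, n = 2 each). The log2 fold change was -0.85 ± 0.17 (SE), with a 95% interval of -1.25 to -0.44 and an edgeR adjusted p of 0.0150. F7 lies on chromosome 8, from 13025506 to 13035809 (GRCm38.p6, the release of the mm10 build in RefSeq's gene table).

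F10, whose activated product turns prothrombin into thrombin, lies on the same chromosome from 13037308 to 13056676, 1498 bases beyond F7 with no annotated gene between them. Its reads numbered 672 and 703 in CTL against 474 and 472 in P1KO. The corresponding levels of 38.3, 39.4, 26.9 and 26.5 CPM were close within each group and far apart between the groups. The level fell from 38.8 ± 0.769 CPM in CTL to 26.7 ± 0.294 CPM in P1KO (SD, n = 2 each). The log2 fold change was thus -0.54 ± 0.08 (SE), with a 95% interval of -0.72 to -0.36 and an edgeR adjusted p of 0.00380. Each of the 4 ratios of a P1KO to a CTL library lay between 0.674 and 0.704, a narrower span than the 0.473 to 0.642 of F7. The neighbours F7 and F10 were thus both lower in P1KO. Whether their changes differ from each other was not tested, and their 95% intervals overlap.

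F2 encodes prothrombin, the precursor of the enzyme that cuts fibrinogen. The CTL libraries held 449 and 517 of its reads and the P1KO libraries 469 and 637, or 25.6, 28.9, 26.6 and 35.8 CPM. KO1 fell between the CTL libraries and KO3 stood above the other 3. The levels were 27.3 ± 2.39 CPM in CTL and 31.2 ± 6.46 CPM in P1KO (SD, n = 2 each), and the log2 fold change was 0.20 ± 0.14 (SE), which did not pass (edgeR adjusted p = 0.390). The 95% interval ran from 0.906-fold to 1.45-fold of the CTL level. With KO3 left out the log2 fold change was -0.033, and with KO1 left out it was 0.39. Both fits rest on 1 P1KO library, with the spread taken from the CTL pair. The P1KO libraries differed by more than counting error for this gene, since KO3 held 1.34 times the level of KO1 (exact binomial 95% interval from 1.19 to 1.52, for counting error alone). F2 lies on chromosome 2 from 91612397 to 91636457, and 34.4% of that span overlaps the gene Ckap5, so reads of these genes may not have been told apart.

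F9, the zymogen whose activated form acts on factor X, was scarce, with 31 and 47 reads in CTL and 49 and 65 in P1KO. Its levels were 1.77, 2.63, 2.78 and 3.65 CPM, so that both P1KO libraries were above both CTL libraries, KO1 only narrowly above CTL2. The means of 2.20 ± 0.612 CPM in CTL and 3.22 ± 0.613 CPM in P1KO (SD, n = 2 each) gave a log2 fold change of 0.55 ± 0.31 (SE), which did not pass (edgeR adjusted p = 0.261). The 95% interval ran from 0.885-fold to 2.41-fold of the CTL level. It included rises as large as the falls called for F7 and Proc, but no falls of that size. Over the members F9 had the fewest reads, 192 in all, and the widest interval. It lies on chromosome X from 59999329 to 60030760.

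F5, the cofactor of activated factor X, had 112 and 135 reads in CTL but 165 and 97 in P1KO. The P1KO libraries lay on either side of the CTL pair, with KO1 at 9.38 and KO3 at 5.45 CPM beside 6.38 and 7.56 CPM for the controls. The means were 6.97 ± 0.834 CPM in CTL and 7.41 ± 2.78 CPM in P1KO (SD, n = 2 each). The log2 fold change of 0.09 ± 0.26 (SE) did not pass (edgeR adjusted p = 0.853), and its 95% interval ran from 0.695-fold to 1.63-fold. Its sign turned with the library left out, from 0.43 without KO3 to -0.35 without KO1. In KO3 the level was 0.581 times that in KO1 (exact binomial 95% interval from 0.448 to 0.751). F5 lies on chromosome 1 from 164151835 to 164220277.

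Of the anticoagulant genes, Proc had the deepest fall among the 8 members. Protein C, once activated by thrombin on thrombomodulin, degrades activated factors V and VIII. Its gene had 313 and 367 reads in the controls and 144 and 180 in P1KO. At 17.8 and 20.5 CPM in CTL against 8.18 and 10.1 CPM in P1KO, both P1KO libraries were far below both CTL libraries. Group levels of 19.2 ± 1.92 CPM and 9.15 ± 1.36 CPM (SD, n = 2 each) gave a log2 fold change of -1.07 ± 0.15 (SE), with a 95% interval of -1.42 to -0.72 and an edgeR adjusted p of 0.00327. Among all tested genes, 4.19% had a lower log2 fold change than Proc. The gene lies on chromosome 18 from 32123126 to 32139570, and no other annotated gene overlaps it.

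Pros1 encodes protein S, which assists activated protein C and is also a ligand of the TAM receptor tyrosine kinases. Its read counts were 8567 and 8666 in CTL and 10115 and 9993 in P1KO. The levels of 488 and 485 CPM in the CTL libraries were nearly the same, and those of 575 and 561 CPM in KO1 and KO3 were both higher. Pros1 rose from 487 ± 1.92 CPM in CTL to 568 ± 9.43 CPM in P1KO (SD, n = 2 each). Its log2 fold change was 0.22 ± 0.05 (SE), with a 95% interval of 0.11 to 0.34 and an edgeR adjusted p of 0.0173. The change was small, and 48.9% of all tested genes had a larger absolute log2 fold change. With library totals in place of TMM scaling it was 0.21, and it passed as well. Pros1 lies on chromosome 16 from 62854307 to 62929346.

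Serpinc1 encodes antithrombin, the serpin that blocks thrombin and activated factor X. The controls held 578 and 558 of its reads, KO1 411 and KO3 561. KO1 was lower, at 23.4 CPM, while KO3, at 31.5 CPM, lay between CTL2 at 31.2 and CTL1 at 32.9 CPM. The levels of 32.1 ± 1.19 CPM in CTL and 27.4 ± 5.77 CPM in P1KO (SD, n = 2 each) gave a log2 fold change of -0.23 ± 0.14 (SE) that did not pass (edgeR adjusted p = 0.299). The 95% interval ran from 0.684-fold to 1.07-fold of the CTL level. The size of the change hung on which P1KO library was used. With KO3 left out the log2 fold change was -0.46, and with KO1 left out it was -0.025. Each of these fits rests on 1 P1KO library, with the spread taken from the CTL pair. KO3 held 1.35 times the level of KO1 (exact binomial 95% interval from 1.19 to 1.54). Serpinc1 lies on chromosome 1 from 160978583 to 161002543, 3.15 megabases from F5.

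**Figure D2:**
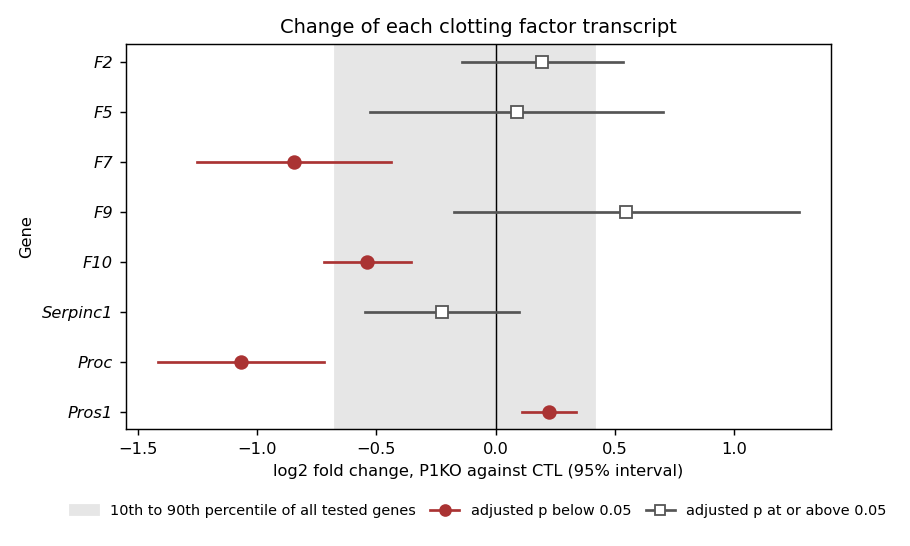
Log2 fold change of each clotting factor transcript, P1KO against CTL (horizontal axis), by gene (vertical axis). Lines are 95% intervals from edgeR's fit, filled circles mark an adjusted p below 0.05, and the grey band spans the 10th to 90th percentile of all tested genes, -0.67 to 0.42. Proc and F7 lie below the band, F9 lies above it with an interval that crosses 0, and the small rise of Pros1 lies inside it.

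The intervals of these changes had unequal width. For Pros1, the best covered member with 37341 reads in all, the SE was 0.05 on the log2 scale, and for F10 with 2321 reads it was 0.08. F2 and Serpinc1 were almost as well covered as F10, with 2072 and 2108 reads, yet their SEs were 0.14 and 0.14, and these are genes for which KO1 and KO3 differed by more than counting error. F5 was the third such gene. For F7, F9, F10, Proc and Pros1 the interval of the ratio of KO3 to KO1 included 1, as did that of CTL2 to CTL1 for all 8 members.

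Since KO1 and KO3 differed, the members were also compared within each library, as reads per 100 reads of F2. This measure needs no scaling between libraries. F2 itself, however, was 1.34 times as high in KO3 as in KO1, and every ratio to it carries that difference. The overlap of F2 with Ckap5, 34.4% of its span, also bears on this base. The measure was chosen after the values were seen, and the ratios were not tested. Proc stood at 69.7 and 71.0 reads per 100 F2 reads in the controls and at 30.7 and 28.3 in P1KO. Relative to F2, F10 went from 150 and 136 reads to 101 and 74.1, and F7 from 44.5 and 37.9 to 26.4 and 15.1. The ratio of Serpinc1 to F2 was 129 and 108 in the CTL libraries and 87.6 and 88.1 in the P1KO libraries. These 4 ratios were lower in both P1KO libraries than in both CTL libraries. In CPM, 62.6% of all tested genes had groups that did not overlap, and the share for ratios to F2 was not computed. The other 3 members gave another picture. Pros1 stood at 1908 and 1676 reads per 100 F2 reads in CTL and at 2157 and 1569 in P1KO, so that its groups overlapped on this base. F5 overlapped too, with 24.9 and 26.1 against 35.2 and 15.2, and F9 was higher in P1KO, with 6.90 and 9.09 against 10.4 and 10.2.

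Against Serpinc1 in place of F2 the order of the groups was the same for Proc, F7 and F10. Per 100 Serpinc1 reads the controls held 54.2 and 65.8 Proc reads, P1KO 35.0 and 32.1. For F7 the ratios were 34.6 and 35.1 in CTL and 30.2 and 17.1 in P1KO. For F10, KO1 came close to the controls, at 115 beside 116 and 126, and KO3 stood apart at 84.1. The fall of Proc relative to another liver clotting gene was thus seen in both P1KO libraries with either gene as the base. With Serpinc1 as the base, that of F10 was narrow in KO1, and that of F7 was smaller in KO1 than in KO3. Pros1, F2 and F9 were higher relative to Serpinc1 in both P1KO libraries, and F5 overlapped. Serpinc1 itself was 1.35 times as high in KO3 as in KO1, and every ratio to it carries that difference. These ratios were not tested either, and the share of all tested genes whose groups do not overlap was not computed for this base.

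**Figure D3:**
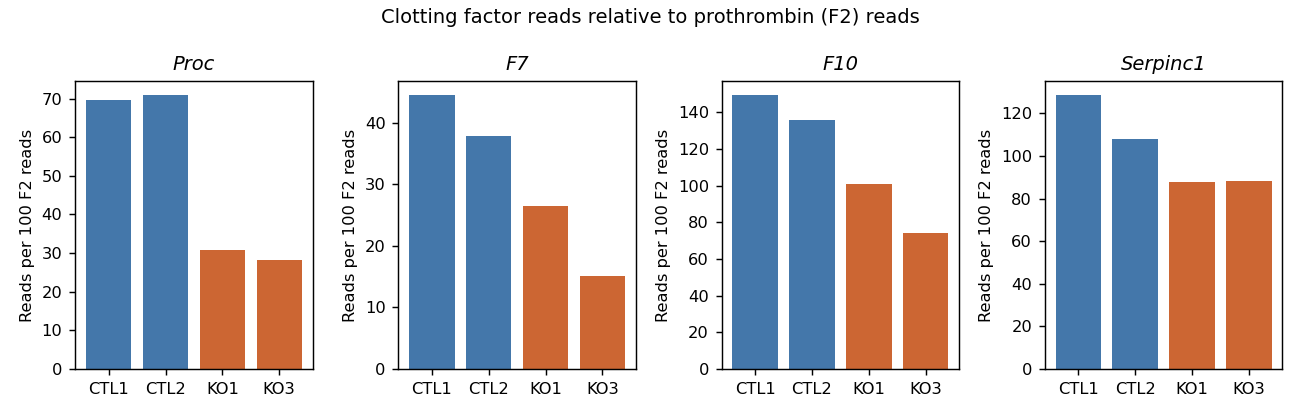
Reads of Proc, F7, F10 and Serpinc1 per 100 reads of F2 (vertical axes, starting at 0) in each library (horizontal axis), with CTL in blue and P1KO in orange. For Proc the CTL libraries stand at 69.7 and 71.0 and the P1KO libraries at 30.7 and 28.3. The 4 genes shown, of 7 compared with F2, are lower relative to it in both P1KO libraries. Of those not shown, F9 is higher relative to F2 in both P1KO libraries, and the groups overlap for Pros1 and F5.

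By role, 2 of 5 procoagulant genes were called, both lower, and 3 did not pass, beside 19.5% of all tested genes called, 9.84% lower and 9.68% higher. Of the 3 anticoagulant genes, 1 was called lower, 1 higher and 1 did not pass. The anticoagulant partners Proc and Pros1 thus differed in direction, the first falling and the second rising. The summed level of the 5 procoagulant genes was 83.4 and 89.5 CPM in the CTL libraries and 72.8 and 76.8 CPM in the P1KO libraries. The largest difference within this sum was that of F10, with means of 38.8 CPM in CTL and 26.7 CPM in P1KO. F7 was also lower, at 11.2 against 6.22 CPM, whereas the means of F2, F5 and F9 were higher in P1KO and did not pass. The summed level of the 3 anticoagulant genes was 539 and 537 CPM in CTL and 606 and 603 CPM in P1KO. Pros1 held 92.3% of their reads. Without Pros1, the sum of Proc and Serpinc1 was 50.7 and 51.8 CPM in CTL against 31.5 and 41.6 CPM in P1KO. The sum of the 7 members without Pros1 was 138 ± 5.04 CPM in CTL and 111 ± 9.97 CPM in P1KO, and with Pros1 it was 624 ± 3.12 and 679 ± 0.547 CPM (SD, n = 2 each), so that the sum of the list followed Pros1.

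The 4 called members were all among the 5 genes whose proteins hold EGF-like repeats, F7, F9, F10, Proc and Pros1, of which 3 were lower and 1 higher. Among F2, F5 and Serpinc1, which lack such repeats, 0 were called in edgeR with all 4 libraries (adjusted p below 0.05). In that fit none of these 3 had an unadjusted p below 0.05 either. DESeq2 and limma-voom, also with all 4 libraries, called none of them. Without KO1 the log2 fold change of F2 was 0.39, and without KO3 that of Serpinc1 was -0.46. The absence of calls for F2 and Serpinc1 thus depends on the P1KO libraries used. Over all tested genes the share called was 19.5%, and without either control 0 members of any group were called in edgeR. This grouping was made with the values known, and the difference between the groups was not tested. By vitamin K dependence, 4 of 6 dependent genes and 0 of the other 2, F5 and Serpinc1, were called with all 4 libraries. The dependent genes are the 5 with EGF-like repeats plus F2, so the same 4 calls are counted again here.

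The direction of the 4 called changes was the same in all 11 other fits, which says little, since their groups do not overlap. The sizes say little more, since these fits share all or most of the 4 libraries. Proc ranged from -1.23 to -0.92 on the log2 scale, F7 from -1.05 to -0.67, F10 from -0.56 to -0.52 and Pros1 from 0.21 to 0.24. Each was called in 8 of the 11, and the 3 fits that lost the calls were those in which the spread came from the P1KO pair alone, without CTL1, without CTL2 and with the CTL libraries summed. In those fits the adjusted p of Proc was 0.0858, 0.121 and 0.0950, and that of F10 was 0.105, 0.122 and 0.108. The adjusted p of F7 was 0.193, 0.177 and 0.175 in the same order, and that of Pros1 was 0.269, 0.277 and 0.275. The background was 19.7% of tested genes with DESeq2 size factors in edgeR, 19.2% with library totals, 15.4% in DESeq2, 20.1% in limma-voom, 19% when limma-voom was given a spread for each group, 6.24% without a filter and 0.98% with the CTL libraries summed. Without KO1, or without KO3, the spread came from the CTL pair, and 34.8% or 33.6% of all tested genes were called. Thus 0 of 8 members belonged to the 107 genes, 0.69% of those tested, that were called with all libraries and without each in turn.

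**Figure D4:**
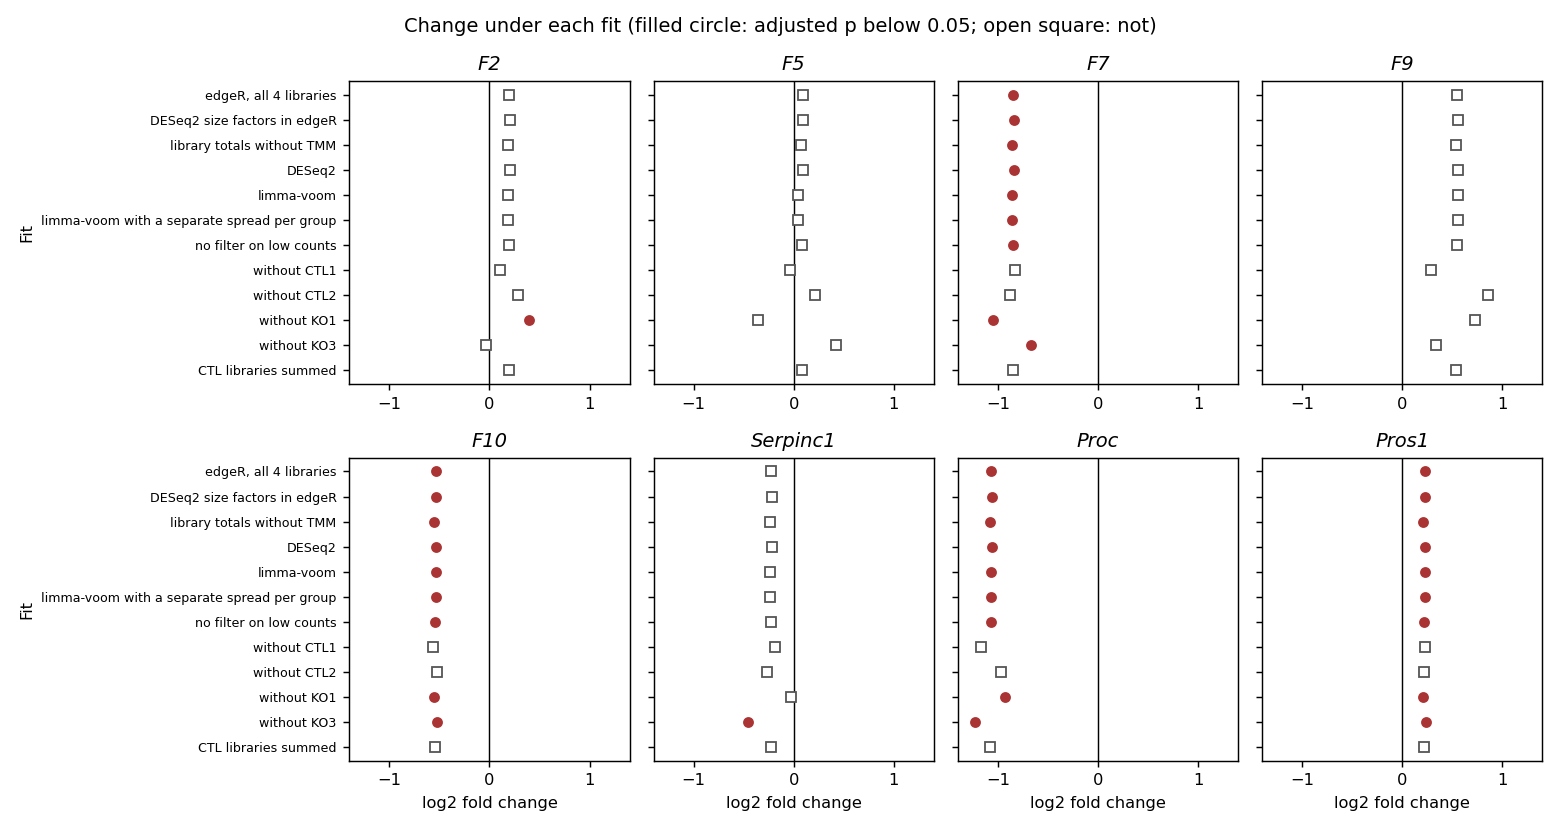
Log2 fold change of each clotting factor transcript, P1KO against CTL (horizontal axis), in the fit to all 4 libraries and in 11 other fits (vertical axis). Filled circles mark an adjusted p below 0.05 and open squares the rest. F7, F10, Proc and Pros1 keep their sign throughout and lose the call without CTL1, without CTL2 and with the CTL libraries summed. F2 and F5 change sign when single libraries are left out. Whether F2 and Serpinc1 are marked as called depends on which P1KO library is left out.

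The summed profile of the members was matched most closely by ENSMUSG00000008429 and ENSMUSG00000049940, out of 7290 genes of at least 21.7 CPM. Likeness was the Euclidean distance between deviations of log2 CPM from each gene's mean over the 4 libraries. ENSMUSG00000008429 stood at 93.8 and 94.8 CPM in CTL and at 103 and 102 CPM in P1KO, a distance of 0.00784. For ENSMUSG00000049940 the levels were 62.8, 63.5, 68.3 and 68.8 CPM in the same order, at a distance of 0.00868. Among the members Pros1 was nearest to the sum, at 0.105, and Proc farthest, at 1.21. Since Pros1 held 80.9% of the summed reads, its nearness was built in, and the summed profile was largely that of Pros1.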

How the data were processed

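RNA-seq of 4 LSEC libraries was analysed, 2 CTL and 2 P1KO. The authors deposited 1 table of raw read counts per Ensembl gene, with 54532 identifiers and no symbols. The submitters' processing notes name HISAT2 2.0.5, featureCounts 1.5.0-p3, fastp, CASAVA and the build mm10. Annotation release, strand setting and treatment of shared reads are, like the read length, not given in the sources used here. Columns CTL1, CTL2 and KO1 were matched to samples by title. No title carries a 3, so KO3 was placed in P1KO by group name only. Symbols of the 8 members came with the list of members, and locations from RefSeq's GRCm38.p6 gene table by symbol. That table holds no Ensembl identifiers, so 0 identifiers were matched and the lists of related genes and cell type markers were not analysed here.

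Genes were filtered with filterByExpr, scaled with TMM and tested with edgeR 4.0.16 (R 4.3.3), P1KO against CTL without covariates, with Benjamini-Hochberg adjustment over 15510 genes and a threshold of 0.05. Each SE was taken as |log2 fold change| over the square root of F, and 95% intervals use the fit's degrees of freedom. CPM were computed from the deposited counts. Intervals of read ratios are exact binomial and cover counting error only. The fit was tested on simulated data. Alternatives used DESeq2 1.42.0, limma 3.58.1, other scalings, no filter and fewer libraries. By rule all 8 members were named, and for likeness the 2 nearest genes, since no symbols were matched. Members and lists were chosen with earlier results of these data known.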

Additional observations from a re-analysis of the deposited data

How the results depend on the processing

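Other scalings, DESeq2 and limma-voom kept every count of calls within 1.5 times and every call among the 8 members. The unfiltered table gave 1633 calls (810 higher, 823 lower), among them the same 4 members. With the CTL libraries summed, 152 genes passed, 70 higher and 82 lower, and of the members 0 passed, 0 higher and 0 lower, as F7 (-0.85), F10 (-0.54), Proc (-1.07) and Pros1 (0.22) lost their calls (adjusted p 0.0950 to 0.275). This fit has fewer samples. Leaving out 1 library gave 120 to 5391 genes, 54 to 2675 higher and 66 to 2716 lower, and 0 to 5 members, 0 to 2 higher and 0 to 4 lower. The log2 fold changes then ranged from -0.033 to 0.39 for F2, -0.35 to 0.43 for F5, -1.05 to -0.67 for F7, 0.29 to 0.86 for F9, -0.56 to -0.52 for F10, -0.46 to -0.025 for Serpinc1, -1.23 to -0.92 for Proc and 0.21 to 0.24 for Pros1. F2 reversed to -0.033 without KO3, and F5 reversed to -0.034 without CTL1 and to -0.35 without KO1. A lone library was assumed to vary like the other group. The cause was not tested. No paired analysis was possible because KO3 has a number that no title carries. Library totals without hepatocyte markers were not computed, since no marker was matched. Depth limits F9 most, with 192 reads in all.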
